A study of Mus musculus with 9 samples.

Results

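The miR-23/27/24 microRNAs were read with 5 probes, mmu-miR-23a, mmu-miR-23b, mmu-miR-27a, mmu-miR-27b and mmu-miR-24, chosen by name from the 566 mouse microRNA probes of a NanoString nCounter panel. All 5 were among the 189 probes kept for testing. The panel counts single reporter-labelled molecules without amplification. It was run on 100 ng of total RNA from whole lungs of C57BL/6 mouse embryos at E18.5, late gestation. Below, the prefix mmu (Mus musculus) is left off. The labels give 5 samples as wild type, numbered 1 to 5, and 4 as Bim3'UTRmut/mut, numbered 6 to 9, meaning homozygous for a mutated 3′ untranslated region of Bim. Bim is a pro-apoptotic protein of the BCL-2 family, and the labels used here do not say which bases of its transcript are changed. The labels name no transgene, Cre driver or treatment, and wild type and mutant samples share strain, age and tissue.

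MicroRNAs are short RNAs that lower the output of messenger RNAs whose 3′ untranslated regions pair with the seed, bases 2 to 8 of the mature strand. The miR-23/27/24 family is encoded in 2 paralogous clusters, and each is transcribed as a single precursor that is cut into 3 hairpins. The miR-23a cluster holds miR-23a, miR-27a and a copy of miR-24, and the miR-23b cluster holds miR-23b, miR-27b and the other copy of miR-24. Both clusters are expressed in endothelial cells, and miR-23 and miR-27 are known for roles in vessel sprouting. MiR-24 has been reported to act on Bim and on endothelial survival.

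The mature strands are shown because they set what each probe can and cannot separate. They were taken from RefSeq for the mouse assembly GRCm38.p6 and are printed 5′ to 3′ with the seed in capitals. Of the 5 members, 4 were matched by name, and miR-23b is named only.
miR-23a: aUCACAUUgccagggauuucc
miR-27a: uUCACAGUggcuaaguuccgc
miR-27b: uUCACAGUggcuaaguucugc
miR-24: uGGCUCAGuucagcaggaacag

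The 27a and 27b strands carried the same seed and differed by 1 substitution, C19U, with the miR-27a base first and positions counted from 1 at the 5′ end. No other mature strand of the RefSeq table held this seed. The miR-24 seed was shared with 4 other annotated strands, miR-5124b, miR-6369, miR-6410 and miR-6413. Whether the probes of a paralog pair, miR-23a with miR-23b or miR-27a with miR-27b, read each other's strand was not tested.

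All the loci lie on the plus strand. On chromosome 8 mature miR-23a lies at chr8:84208563-84208583, miR-27a at chr8:84208727-84208747 and the Mir24-2 copy of miR-24 at chr8:84208875-84208896, in the order 23a, 27a, 24. The nearest protein-coding gene to this cluster in the annotation is Zswim4. On chromosome 13 mature miR-27b lies at chr13:63300760-63300780 and the Mir24-1 copy of miR-24 at chr13:63301251-63301272, within the bounds of the gene Aopep. The mature strands of Mir24-2 and Mir24-1 were identical, so the single miR-24 probe counts both copies and belongs to neither cluster alone. The panel has no probe for the other arms of these hairpins, which were not analysed here.

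Total counts over the 566 mouse probes ran from 206964 to 289227 per sample. A count was taken as above background if it passed its own lane's threshold, set 2 SD above the mean of the 8 negative control probes. This threshold was higher in the lanes of wild type 2 (147), wild type 5 (198) and mutant 6 (152) than in the other 6, at 56.3 to 80.5. In 2 of the 9 samples, wild type 3 and mutant 8, muscle microRNAs were high. Their count of miR-208a, which is made from an intron of a cardiac myosin gene, was 1202 and 1271, against 15 to 54 elsewhere. The 7 heart and skeletal muscle probes summed to 122946 and 132643 CPM (counts scaled to a fixed library total) in these 2 samples and to 1416 to 2419 in the others, and the 5 epithelial probes to 2946 and 4560 against 29175 to 32566. The lung label of these 2 samples is therefore at odds with the epithelial microRNAs they hold. Genotype differences of single probes, and of ratios over all samples, are given below with and without them. The lane annotation names sample 5 as mutant, against its label and the study design, and the label was followed. Litter, sex and day of dissection are unstated, and p-values therefore cover only how these 9 samples vary, which may be partly technical. In whole tissue, fewer cells of a type and less RNA per cell cannot be told apart.

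Of the 5 probes, miR-27a had the highest counts, followed by miR-23a, miR-23b, miR-24 and miR-27b, and this order held in each of the 9 samples. By summed count they ranked 23, 40, 49, 92 and 138 among the 189 probes. Probes on such a panel differ in how well they capture their strands, so the order is of counts and not of molecules per cell. All 5 probes passed the background threshold in 9 of 9 samples, except miR-27b, which passed in 8 of 9.

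In the miR-23a cluster, the miR-27a count was 3496, 3851, 1981, 2618 and 3089 in wild type 1 to 5 and 2515, 3233, 2094 and 2728 in mutant 6 to 9. The lowest counts were those of wild type 3 and mutant 8, and the genotypes overlapped. The miR-23a count was 1493, 1425, 1316, 865 and 1367 in wild type 1 to 5 and 1222, 1192, 1393 and 800 in mutant 6 to 9. Wild type 4 and mutant 9 were lowest within their genotype, and the ranges overlapped.

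In the miR-23b cluster, the miR-23b count was 966, 739, 355, 545 and 814 in wild type 1 to 5 and 779, 805, 544 and 552 in mutant 6 to 9. Wild type 3 read lowest of all the samples and mutant 8 lowest of the mutants. The miR-27b count was 159, 147, 100, 109 and 170 in wild type 1 to 5 and 156, 122 and 128 in mutant 6, 8 and 9. In mutant 7 it lay between the last 2 of these, at 1.92 times its lane's threshold of 65.7. In wild type 5 its 170 counts lay under the lane's threshold of 198, and in wild type 2 and mutant 6 it stood at only 1.00 and 1.03 times the threshold, so its values in these 3 lanes carry a large share of background. Its lowest count, 100 in wild type 3, has an exact Poisson 95% interval of 81.4 to 122 that covers counting error only.

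The miR-24 count, which pools both loci, was 241, 215, 195, 160 and 297 in wild type 1 to 5 and 297, 259, 363 and 169 in mutant 6 to 9. Mutant 8 was highest, and the mutant range extended beyond the wild type range only through that sample. The count lay between 1.47 and 5.58 times the threshold.

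**Figure D1:**
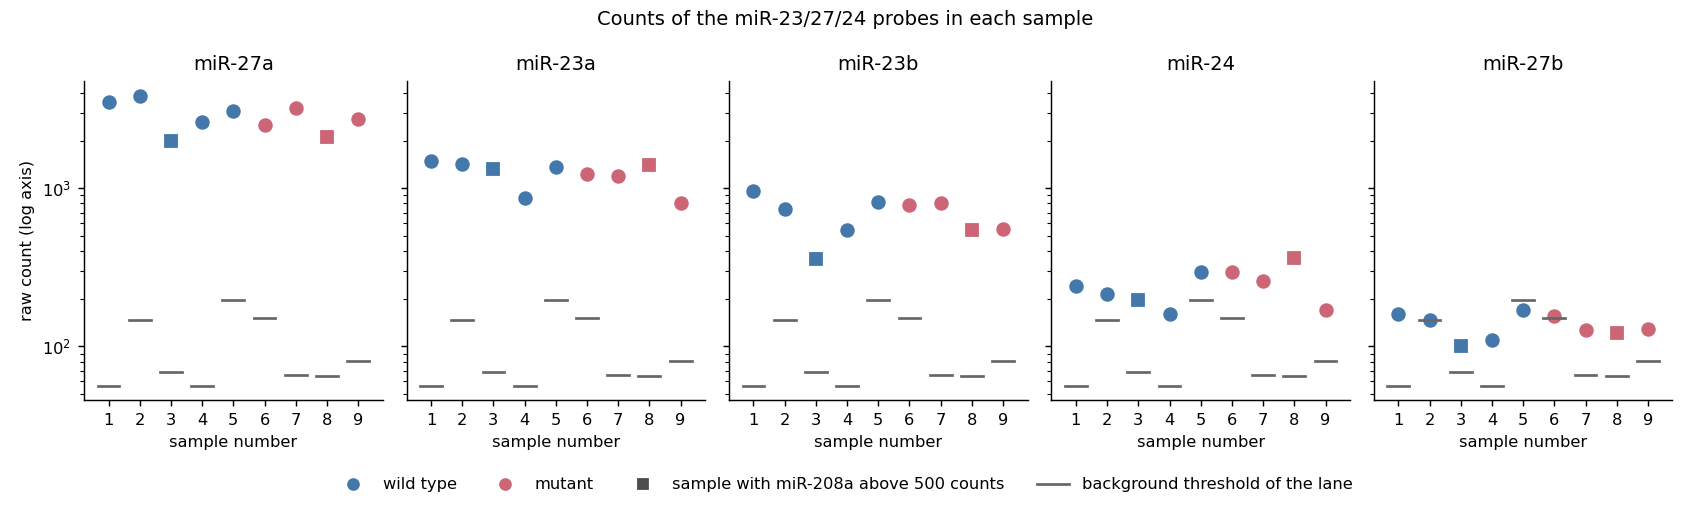
Raw counts of the 5 probes (log axis) in each of the 9 samples by genotype, with the background threshold of each lane. MiR-27a is highest and miR-27b lowest in every sample, and miR-27b touches the threshold in the higher-background lanes of wild type 2, wild type 5 and mutant 6.

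The first comparison asked how the 2 clusters stood against each other in each lung. A ratio of probes from the same lane needs no scaling between lanes, but its size also holds the difference in capture between the probes, so ratios are compared between samples only. The count ratio of miR-23a to miR-23b was 1.55, 1.93, 3.71, 1.59 and 1.68 in wild type 1 to 5 and 1.57, 1.48, 2.56 and 1.45 in mutant 6 to 9. The ratio was thus near the same level in 7 samples, and the highest samples were wild type 3 and mutant 8, 1 of each genotype. On the log2 scale its mean was 0.98 ± 0.53 (SD, n = 5) in wild type and 0.78 ± 0.39 (SD, n = 4) in mutant samples. The difference of -0.20 ± 0.31 (SE) lay within the spread between samples (exact two-sided permutation test, p = 0.571, Benjamini-Hochberg adjusted over 5 ratios p = 0.952). The smallest p this design allows is 0.00794.

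Without wild type 3 and mutant 8 the spread of that ratio was much smaller. The log2 ratio was then 0.75 ± 0.14 (SD, n = 4) in wild type, from 0.63 to 0.95, and 0.58 ± 0.06 (SD, n = 3) in mutant samples, from 0.54 to 0.65. The ranges still overlapped, and the difference was -0.16 ± 0.08 (SE, exact two-sided permutation test, p = 0.143, adjusted p = 0.643). The smallest p that these samples allow is 0.0286. A single ratio could therefore not pass after adjustment over 5 ratios, here or in the later tests without wild type 3 and mutant 8. The difference was 0.03 without wild type 3 alone and -0.39 without mutant 8 alone, so its sign rested on which of these samples entered.

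The count ratio of miR-27a to miR-27b was 22.0, 26.2, 19.8, 24.02 and 18.2 in wild type 1 to 5 and 16.1, 25.7, 17.2 and 21.3 in mutant 6 to 9. In wild type 5, where miR-27b was under the threshold, the ratio is a bound, and miR-27a stood at 15.6 times the threshold there. The genotypes overlapped over most of their range, and wild type 3 and mutant 8 lay among the others. The log2 ratio was 4.45 ± 0.21 (SD, n = 5) in wild type and 4.30 ± 0.31 (SD, n = 4) in mutant samples, a difference of -0.15 ± 0.18 (SE, exact two-sided permutation p = 0.405, adjusted p = 0.952). The bound of wild type 5 entered here as if measured, and with a sample left out the difference ran from -0.27 to -0.05. It was -0.12 ± 0.23 (SE) without wild type 3 and mutant 8 (exact two-sided permutation p = 0.571, adjusted p = 0.943). With background subtracted the difference over all 9 samples was -0.22 (exact two-sided permutation p = 0.278, adjusted p = 0.694). After subtraction of the mean negative control the linear ratio ran from 26.5 to 45.8 in wild type and from 23.6 to 34.6 in mutant samples, so background in the weak miR-27b probe moved the size of the ratio.

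The next ratios are between partners of a cluster. The count ratio of miR-27a to its cluster partner miR-23a was 2.34, 2.70, 1.51, 3.03 and 2.26 in wild type 1 to 5 and 2.06, 2.71, 1.50 and 3.41 in mutant 6 to 9. Wild type 3 and mutant 8 had the lowest ratios, and the others lay at 2.06 or more. On the log2 scale both genotypes had a mean of 1.21, with an SD of 0.38 (n = 5) in wild type and 0.51 (n = 4) in mutant samples (exact two-sided permutation p = 0.984). The difference was 0.06 ± 0.23 (SE) without wild type 3 and mutant 8 (exact two-sided permutation p = 0.8, adjusted p = 0.943). The log2 ratio of miR-27b to miR-23b was -2.60, -2.33, -1.83, -2.32 and -2.26 in wild type 1 to 5 and -2.32, -2.68, -2.16 and -2.11 in mutant 6 to 9. The value in wild type 5 is a bound, since its miR-27b count was under the threshold. The groups overlapped, and the difference was -0.05 ± 0.18 (SE, exact two-sided permutation p = 0.833, adjusted p = 0.984), and -0.04 without wild type 5.

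The count of miR-24 was 3.94%, 3.49%, 5.20%, 3.87% and 5.46% of the summed miR-23 and miR-27 counts in wild type 1 to 5. In mutant 6 to 9 it was 6.36%, 4.84%, 8.74% and 4.02%. Mutant 8 and mutant 6 were highest, while mutant 9 lay inside the wild type range. The log2 ratio was -4.53 ± 0.28 (SD, n = 5) in wild type and -4.12 ± 0.49 (SD, n = 4) in mutant samples. The difference of 0.41 ± 0.28 (SE) did not pass the test (exact two-sided permutation p = 0.175, adjusted p = 0.873). Without wild type 3 and mutant 8 it was 0.27 ± 0.24 (SE, exact two-sided permutation p = 0.257, adjusted p = 0.643), and without mutant 8 alone it was 0.20.

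Because the lanes of wild type 2, wild type 5 and mutant 6 had higher background, the ratios were also compared within each kind of lane. The lower-background lanes held 3 wild type and 3 mutant samples, and an exact test there cannot go below 0.1. Wild type 3 and mutant 8 were among them, so the comparison is not free of the samples with high muscle microRNAs. The log2 difference was -0.24 for miR-23a to miR-23b (exact permutation p = 0.5) and -0.05 for miR-27a to miR-27b (p = 0.9). In the same lanes it was 0.37 for miR-24 to the sum of the others (exact permutation p = 0.5), 0.13 for miR-27a to miR-23a (p = 0.8) and -0.06 for miR-27b to miR-23b (p = 0.9). None of the 5 passed, and the higher-background lanes, with 2 wild type samples and 1 mutant, gave differences of -0.20, -0.44, 0.54, -0.26 and -0.03 in the same order, with no test.

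**Figure D2:**
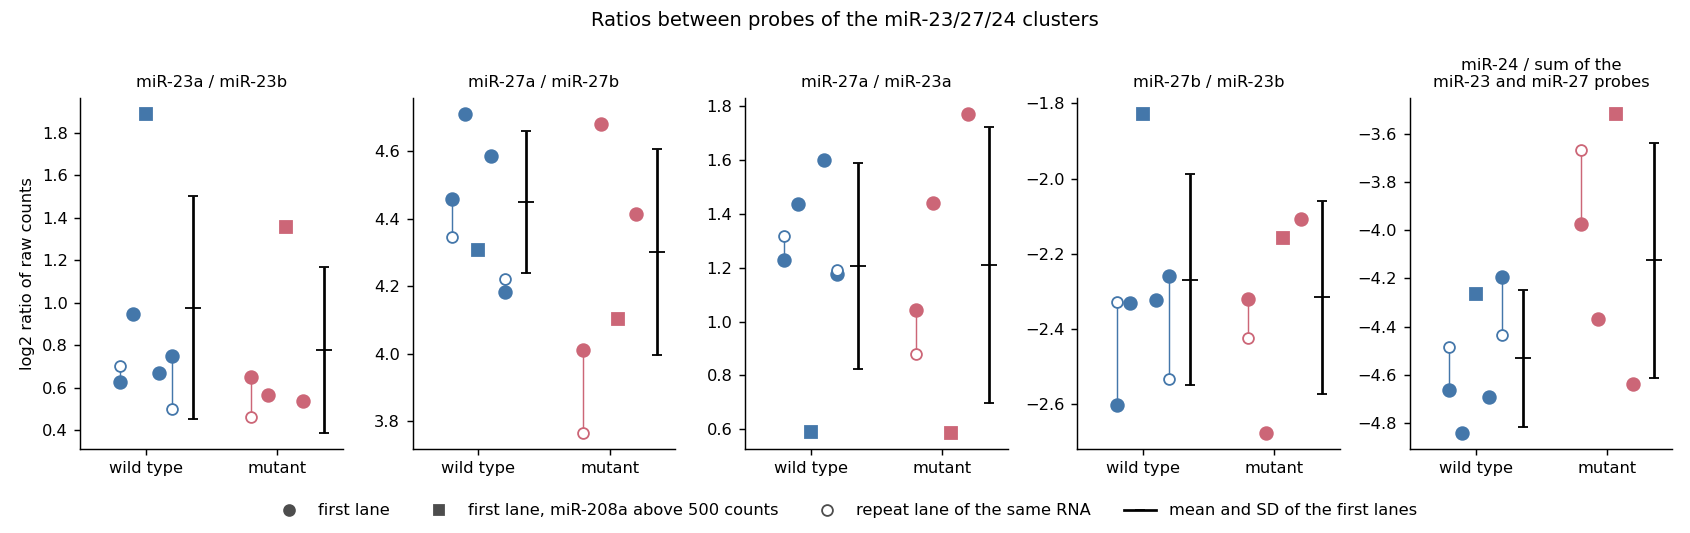
Log2 count ratios between the probes in each sample, for the 5 ratios, by genotype with the mean and SD of first lanes and repeat lanes as open circles. Wild type 3 and mutant 8 are squares, and they lie above the other 7 samples for miR-23a over miR-23b and below them for miR-27a over miR-23a.

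Repeat lanes of the same RNA gave the technical error of these ratios. A second lane existed for wild type 1, wild type 5 and mutant 6. The log2 ratio of miR-23a to miR-23b differed between lanes of a sample by 0.07 to 0.25 and that of miR-27a to miR-23a by 0.02 to 0.16. On the same scale wild type 3 and mutant 8 had 1.89 and 1.36 for miR-23a to miR-23b, against 0.95 at most in the other 7. They had 0.59 each for miR-27a to miR-23a, against 1.04 at least in the others. The log2 ratio of miR-27a to miR-27b differed by 0.04 to 0.25, that of miR-27b to miR-23b by 0.10 to 0.28 and that of miR-24 to the sum by 0.18 to 0.31. For these 3 ratios the SD between lanes of a sample was 0.111, 0.164 and 0.176. The standard error of the genotype difference was 0.180, 0.179 and 0.275. The first is an error of single lanes and the second of group means, so they are not directly comparable. In each of the 3 lane pairs the miR-23a to miR-23b ratio read higher in the lane with the higher background.

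The second comparison asked whether the level of each probe differed between genotypes. No member passed the test. Across all 189 probes edgeR's quasi-likelihood test called 0 (0% at an adjusted p under 0.05), with 5 probes, or 2.65%, at an unadjusted p under 0.05, and DESeq2 called 0 with 9, or 4.76%, at an unadjusted p under 0.05. Levels below are log2 CPM, the log2 of the count scaled to the kept counts of the sample (CPM) after TMM normalization, and fold changes are mutant against wild type.

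MiR-27a had a mean level of 13.64 ± 0.18 (SD, n = 5) log2 CPM in wild type and 13.40 ± 0.25 (SD, n = 4) in mutant samples. Its log2 fold change was -0.23 ± 0.16 (SE, edgeR adjusted p = 0.997). MiR-23a, with a level of 12.43 ± 0.34 against 12.19 ± 0.30 log2 CPM, had a log2 fold change of -0.25 ± 0.23 (SE). Both probes of the miR-23a cluster thus read slightly lower in mutant samples, by less than 2 standard errors each. The miR-23a value moved with single samples, to -0.10 without wild type 3, -0.13 without mutant 9 and -0.37 without mutant 8.

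The miR-23b cluster sat closer to 0. MiR-23b was at 11.46 ± 0.29 log2 CPM in wild type and 11.42 ± 0.23 in mutant samples, with a log2 fold change of -0.05 ± 0.20 (SE). MiR-27b was at 9.21 ± 0.08 against 9.12 ± 0.13 log2 CPM, with a log2 fold change of -0.09 ± 0.12 (SE). With lanes scaled on the housekeeping mRNAs the log2 fold changes were 0.09 and 0.05, as that scaling moved the median of all 189 probes from -0.03 to 0.11. Relative to the median, miR-23b was at -0.02 under both scalings and miR-27b at -0.05 under TMM and -0.06 under the housekeeping mRNAs.

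MiR-24 alone read higher in mutant samples, at 10.09 ± 0.42 against 9.89 ± 0.23 log2 CPM, with a log2 fold change of 0.23 ± 0.22 (SE, edgeR adjusted p = 0.997). This value was 0.12 ± 0.17 (SE) without wild type 3 and mutant 8, and 0.04 without mutant 8 alone. Unadjusted edgeR p-values of the 5 probes ran from 0.190 for miR-27a to 0.795 for miR-23b. The group ranges of log2 CPM were separate for 0 of the 5 members and for 1 of the 189 probes (0.529%). Of the 5 members, 4 read lower in mutant samples, beside 113 of 189 probes (59.8%), and their median log2 fold change was -0.09 beside -0.03 for all probes.

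Without wild type 3 and mutant 8 the log2 fold changes were -0.22 ± 0.16 (SE) for miR-23a and -0.17 ± 0.15 (SE) for miR-27a. Those of miR-23b and miR-27b were -0.07 ± 0.16 (SE) and -0.05 ± 0.15 (SE). Again edgeR called 0 of the 189 probes, with 6 (3.17%) at an unadjusted p under 0.05.

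**Figure D3:**
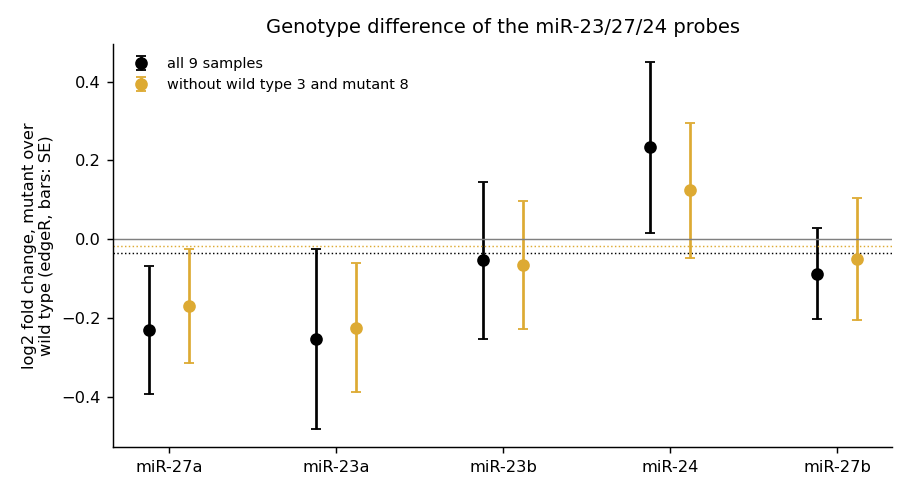
Log2 fold change of each probe, mutant against wild type, with an SE derived from edgeR's F statistic, over all 9 samples and without wild type 3 and mutant 8. Dotted lines mark the median of all 189 probes in each fit. The 5 values lie between -0.25 and 0.23 over all 9 samples, and the error bars of miR-23b and miR-27b reach across 0 in both fits.

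The 5 probes together held 2.24% ± 0.175 (SD, n = 5) of the kept counts in wild type and 2.06% ± 0.0905 (SD, n = 4) in mutant samples. The 2 probes of the miR-23a cluster, leaving miR-24 aside, held 1.81% ± 0.151 and 1.60% ± 0.0629. The 2 probes of the miR-23b cluster held 0.339% in both genotypes, with an SD of 0.0665 in wild type and 0.0489 in mutant samples. These shares are descriptions with no test.

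The third comparison set wild type 3 and mutant 8, the samples with over 500 counts of miR-208a, beside the other 7. It is a description only, with no test, since the samples are told apart by their own readout and each genotype has 1 of them. The ratio of miR-23a to miR-23b was 3.71 and 2.56 in these samples and 1.45 to 1.93, with a median of 1.57, in the others. The ratio of miR-27a to miR-23a was 1.51 and 1.50 against 2.06 to 3.41, with a median of 2.70. Both ratios were separate between the 2 samples and the other 7. How many ratios among all probe pairs were separate in this way was not counted. Of all 189 single probes, 73 (38.6%) were separate in log2 CPM, so separate ratios may be common too. The other ratios overlapped, with miR-27a to miR-27b at 19.8 and 17.2 against 16.1 to 26.2, and miR-24 at 5.20% and 8.74% of the sum against 3.49% to 6.36%. The ratio of miR-27b to miR-23b was 0.282 and 0.224 against 0.157 to 0.232. There wild type 3 lay above the others and mutant 8 inside their range.

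In log2 CPM, miR-23b was 11.06 in wild type 3 and 11.17 in mutant 8, below the 11.27 to 11.87 of the other samples. On this scale 3 of the 5 members lay wholly to one side of the other 7 samples, beside 73 of all 189 probes (38.6%), so such a position was common. MiR-23a was at 12.94 and 12.53 log2 CPM, above the 11.80 to 12.49 of the others, and miR-24 was at 10.20 and 10.59, above a range whose upper end was also 10.20 when rounded. MiR-27a, at 13.53 and 13.11 against 13.27 to 13.88, lay within the range of the others in wild type 3 and below it in mutant 8. MiR-27b, at 9.25 and 9.03 log2 CPM, lay within the 8.99 to 9.28 of the others.

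The positions of single probes depended on the scale. MiR-23b lay below the other 7 on all 5 scales tried, namely log2 CPM, raw counts, counts per positive control, counts per housekeeping mRNA and background-subtracted counts. MiR-23a and miR-24 lay above the other 7 on the log2 CPM scale only, and miR-27a lay below them on the 4 other scales. On each of those 4 scales 2 of the 5 members were thus to one side of the other 7, beside 37.6% of all probes for raw counts, 39.2% per positive control, 34.4% per housekeeping mRNA and 34.4% after background subtraction. Per positive control, the difference from the median of the other 7 was -1.52 and -0.65 for miR-23b and -0.26 and 0.08 for miR-23a on the log2 scale, beside -0.85 and -0.17 for the median of all probes. The ratios do not depend on scaling between lanes, but background subtraction moved one of them. After subtraction the ratio of miR-27a to miR-27b was 23.6 in mutant 8, below the 26.5 to 45.8 of the other 7, and 31.1 in wild type 3, inside that range.

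Several marker lists differed between the same samples. All 7 heart and skeletal muscle probes were above background in wild type 3 and mutant 8, and none was above background in every one of the other 7 samples. In raw counts 5 of the 7 probes lay above all others in both samples. The exceptions were miR-206 and miR-133b, at 71 and 75 counts in wild type 3. These lay inside the 62 to 116 and 46 to 93 of the others. Among the other 7 samples miR-1 and miR-133a each still passed the threshold in 4, and 2 of the 7 probes passed in none. The 5 epithelial probes each lay below the other 7 samples, with 2 and 4 of them still above background. The 6 endothelial probes summed to 110102 and 83267 CPM against 127566 to 142607. All list sums in CPM were scaled to the kept counts without TMM, unlike log2 CPM. The TMM factor was 0.898 in wild type 3 and 1.04 in mutant 8, so the 2 measures are on unlike scales. In raw counts 4 of the 6 endothelial probes lay below all others in both samples. In log2 CPM only miR-221 did among the kept probes of the list. Within that list miR-126-3p, the main endothelial microRNA, had 19097 and 17303 counts against 25451 to 34642. In log2 CPM it was at 16.80 in wild type 3, inside the 16.75 to 17.05 of the others, and at 16.16 in mutant 8, below them. The smooth muscle and mesenchyme list summed to 64040 and 62585 CPM against 78549 to 89788, but its probes did not all read the same way. MiR-199a-3p, at 14.51 and 13.80 log2 CPM, lay below the 14.78 to 15.45 of the others, while miR-143, at 13.10 and 13.33 log2 CPM, lay above the others, which reached 12.77. The part of these cell types in the cluster ratios was not tested.

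**Figure D4:**
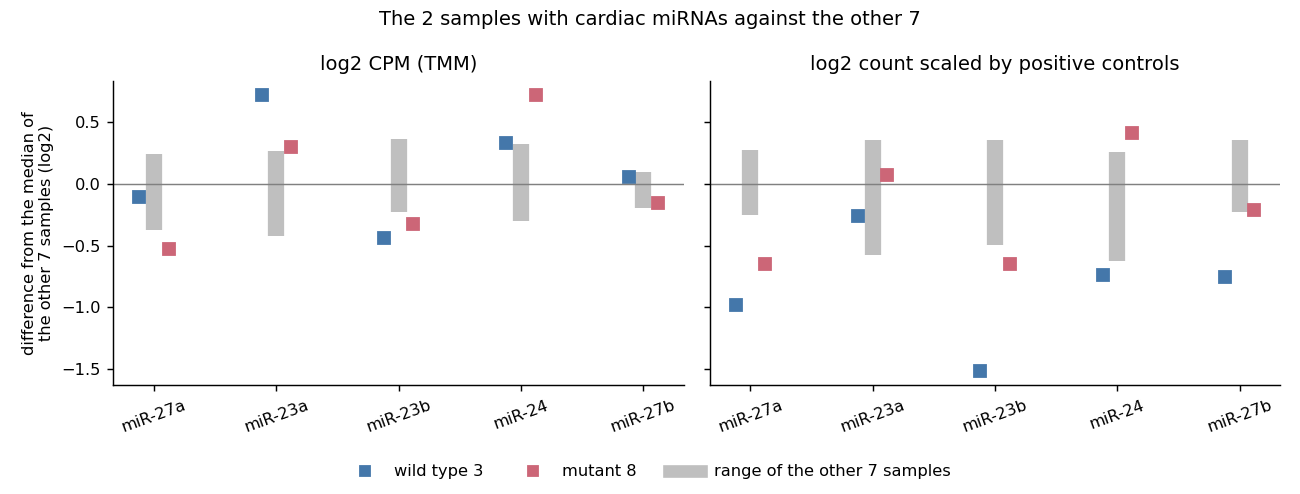
Difference of wild type 3 and mutant 8 from the median of the other 7 samples (log2 axis) for each probe, in log2 CPM and in log2 counts scaled by the positive controls, with grey bars for the range of the other 7. MiR-23b lies below the bar in both samples on both scales, while miR-23a lies above it in log2 CPM and inside it when scaled by the positive controls.

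How tightly the probes moved together was described by the SD of the log2 count ratio of each pair over samples, where a small SD means a steady ratio. Over all 9 samples the SD was 0.413 for miR-23a with miR-27a, 0.253 for miR-23b with miR-27b, 0.453 for miR-23a with miR-23b and 0.251 for miR-27a with miR-27b. The median over all 17766 pairs of kept probes was 0.495. Partners in the miR-23a cluster were therefore less steady than the 2 miR-27 paralogs. Over the 7 samples without wild type 3 and mutant 8 the steadiest of these pairs was miR-23a with miR-23b, at 0.137, and 3.31% of all pairs were lower. There miR-23a with miR-27a had 0.253 and miR-27a with miR-27b 0.258, beside a median of 0.321. MiR-24 was steadier with miR-23b, at 0.206, than with miR-27a, at 0.391.

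In level, miR-27b varied least, with an SD of 0.110 log2 CPM over the 9 samples that only 0.529% of probes went below, but its count lies close to background in 3 lanes. MiR-27a had an SD of 0.234, miR-23b 0.249, miR-23a 0.325 and miR-24 0.325, beside a median of 0.317 over the 189 probes.

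The probes with the most similar pattern were found by the root mean square difference of log2 CPM after centring each probe on its mean over the samples, where 0 is an identical pattern. Over all 9 samples the nearest to miR-27a was miR-126-3p, at 0.119, and then miR-329 and miR-151-5p at 0.130 and 0.134. Nearest to miR-23a was miR-30c at 0.131, to miR-23b miR-154 at 0.0923, to miR-27b miR-381 at 0.107 and to miR-24 miR-30b at 0.143. The closest other member was farther for each of the 5, at 0.237 to 0.280. That is no like comparison, since the nearest probe was picked from 184 probes and the nearest member from far fewer. The median difference from the 184 probes was 0.309 to 0.426. Each closest member was nearer than the median for its probe, but the smallest of several values tends to fall below a median. No shared pattern of the members follows from this.

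Over the 7 samples without wild type 3 and mutant 8 the nearest probes differed, with miR-22 at 0.0795 for miR-23a and miR-199a-3p at 0.0780 for miR-27a. Nearest to miR-23b was miR-434-3p at 0.0488 and to miR-27b miR-185 at 0.0565, while miR-30b, at 0.146, was still nearest to miR-24. All the samples share a panel and a cartridge, and these likenesses are descriptions over few samples.

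MiR-24 was last set beside the other microRNAs reported to act on Bim. Of 20 such microRNAs, read by 19 probes on the panel, 15 probes were kept, and miR-32, miR-92a, miR-92b and miR-363 were not. Among the 15, miR-24 ranked 14 by mean log2 CPM, with only the combined probe for miR-181b and miR-181d lower. Of the 15 probes 10 read higher and 5 lower in mutant samples, beside 40.2% of all 189 probes higher, and edgeR called 0. Probes of a shared cluster are not separate observations, and the direction of the list was not tested. Their median log2 fold change was 0.16, beside -0.03 for all 189 probes. MiR-19a and miR-19b, of the miR-17~92 cluster, had log2 fold changes of 0.58 ± 0.23 (SE) and 0.55 ± 0.19 (SE), both larger than that of miR-24, and miR-181a had -0.16 ± 0.15 (SE). The edgeR adjusted p of each was 0.997.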

How the data were processed

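Each sample's 5 cluster probes were taken from the deposited table of raw counts per probe. Per the file headers a further deposited table covers 12 lanes, since wild type 1, wild type 5 and mutant 6 have repeats. The first lanes, equal to the count table in 5634 of 5634 values, were analysed, and repeat lanes count as 1 sample. No background step, filter or normalization by the authors is given in the sources used here, and per the labels' protocols RNA was extracted from ground tissue with a miRNA kit.

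The table holds 626 probes, 566 of them for mouse microRNAs. A mouse probe was kept if its count passed the mean plus 2 SD of the lane's 8 negative controls in at least 4 samples, which kept 189. Library sizes were the kept counts. The test was edgeR's quasi-likelihood F-test (version 4.0.16, R 4.3.3, TMM factors, no covariate) with Benjamini-Hochberg adjustment over the 189 probes at 0.05. EdgeR gives no standard error here, so the SE of its log2 fold change was derived as the absolute fold change over the square root of F. Log2 CPM used a prior count of 2. DESeq2 1.42.0 and limma 3.58.1 were alternatives. Ratios were log2 of raw counts in a lane, tested with exact two-sided permutation tests in Python 3.11.15 with scipy 1.17.1. Shares, marker sums and likeness were described with no test. Scripts were tested on simulated counts.

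The named probes were the 5 members, the 3 kept probes nearest to each, the marker lists and the microRNAs reported to act on Bim. Members and lists were chosen with earlier results of these data known. The alternatives were other scalings, filters and tests, subtraction of background, the second or summed lanes, sample 5 as mutant, and leaving out samples.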

Additional observations from a re-analysis of the deposited data

Results flagged for a closer look

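In 22 groups of 4 or 5 samples, 2 values lay farther from the rest of their group than Dixon's 95% critical value allows, and chance marks about 1 in 20 groups. Both belong to the log2 count ratio of miR-23a to miR-23b. Wild type 3 had 1.89, against 0.63 to 0.95 in the other wild type samples, and mutant 8 had 1.36, against 0.54 to 0.65 in the other mutant samples. These are the samples with over 500 counts of miR-208a, and repeat lanes of other samples moved this ratio by 0.25 at most. Many single probes also set these samples apart, with 73 of all 189 (38.6%) to one side of the other 7 in log2 CPM.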

How the results depend on the processing

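The number of probes called between genotypes was 0 under all 24 alternatives, with a smallest adjusted p of 0.389. The log2 fold changes of miR-23a (-0.37 to -0.08), miR-27a (-0.32 to -0.07) and miR-24 (0.04 to 0.38) kept their sign under all 24. That of miR-23b turned to 0.00069 with total-count scaling, 0.015 with positive controls, 0.093 with housekeeping mRNAs, 0.00091 with no filter and 0.0083 with second lanes, and ran from -0.14 to 0.061 with a sample left out. That of miR-27b turned to 0.020 with positive controls and 0.052 with housekeeping mRNAs, scalings that moved the median of all probes to 0.08 and 0.11, and relative to that median it was -0.06 under both, beside -0.05 in the reported fit. It was not tested where a probe had to pass background in all samples.

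Of the ratios, miR-27a to miR-27b (-0.27 to -0.05) and miR-24 to the sum (0.20 to 0.58, smallest unadjusted exact permutation p = 0.0714, smallest adjusted p = 0.357) kept their sign in all 15 alternatives. MiR-23a to miR-23b ran from -0.39 to 0.029 with a sample left out. MiR-27b to miR-23b turned to 0.0076 after background subtraction and 0.010 without wild type 3 and mutant 8, and ran from -0.13 to 0.073 with a sample left out. MiR-27a to miR-23a turned to -0.0094 with sample 5 as mutant, -0.057 with second lanes and -0.025 with summed lanes, and ran from -0.18 to 0.21 with a sample left out. The cause of these turns was not tested. The share of counts differed by -0.227 to -0.124 percentage points. No paired analysis was possible because the genotypes share no replicate number. Nearness to background limits miR-27b most.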
